A study of Mus musculus with 8 samples.

Results

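Long intergenic noncoding RNAs (lincRNAs) were followed in 8 mouse RNA sequencing libraries. The class was taken from the gene annotation that the deposited tables carry, and holds all transcripts typed lincRNA except that of Gm42418, a gene model that collects reads of ribosomal RNA. TPM, a level per transcript length relative to the whole library, was rescaled without it. This left 5936 transcripts of 4034 genes, out of 117667 transcripts of 48440 genes. Of these, 1881 had no count in any library and 2105, from 1588 genes, passed the filter on low counts and were tested. A transcript that passed the filter through 1 group alone had to be high there, so counts over tested transcripts describe those transcripts and not all 5936.

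The libraries fall into 4 groups of 2. MII oocytes are arrested at the second meiotic metaphase, and GV oocytes are arrested before the first division with an intact germinal vesicle. The mice that gave the oocytes had received 5 units of PMSG, a hormone that stimulates follicles, 48 h ahead of an injection whose agent the labels do not give, and GV oocytes were taken into MEM with 2 µM milrinone, which holds meiosis. The MII samples carry the same text, with no maturation step. EpiC are in vitro epiblast cells, made from the stem cells by removing LIF and 2i (PD0325901 and CHIR99021) 24 h after plating and collecting about 56 h later. ESC are embryonic stem cells kept in Knockout DMEM with 15% serum, LIF and 2i. No strain, age, line or number of pooled oocytes is given in the sources used here, and nothing states that replicates are separate animals or cultures. P-values therefore measure the spread between these libraries only.

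LincRNAs are transcribed from loci of their own between protein-coding genes, and most are capped, spliced and present at low levels in few tissues. Well-studied members act in the nucleus, in imprinted clusters or as hosts from whose introns or exons small RNAs are cut. An oocyte ends its growth phase with transcription largely silent, so the RNA of the MII stage is mostly what the GV oocyte stored, less what was degraded.

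Promoter windows of the loci described below differed in CpG content among oocyte loci and among loci of the cultured cells. The following windows run from 250 bases before to 50 bases after the RefSeq start of a gene on GRCm38.p6, 5′ to 3′, with each CG dinucleotide in capitals. They were chosen after their values were seen, to show differing CpG content on both sides. Only windows whose start lies within 12 bases of the transcript's start were used. The oocyte loci are C86187, the current symbol of the gene the tables call RP23-323L3.5, on chr7:46975862-46976161 of the minus strand, Gm1965 on chr6:89140744-89141043 of the plus strand, and Gm1070 on chr6:71293515-71293814 of the plus strand. The loci of the cultured cells are Platr7 on chr10:84553289-84553588 of the minus strand, the snoRNA host Snhg1 on chr19:8723237-8723536 of the plus strand, and the imprinted Meg3 on chr12:109540746-109541045 of the plus strand.
C86187: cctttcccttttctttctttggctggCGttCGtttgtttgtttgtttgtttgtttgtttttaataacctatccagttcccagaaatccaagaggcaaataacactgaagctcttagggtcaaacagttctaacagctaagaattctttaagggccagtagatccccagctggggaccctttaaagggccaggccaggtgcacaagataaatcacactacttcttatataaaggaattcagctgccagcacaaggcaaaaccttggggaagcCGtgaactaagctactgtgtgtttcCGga
Gm1965: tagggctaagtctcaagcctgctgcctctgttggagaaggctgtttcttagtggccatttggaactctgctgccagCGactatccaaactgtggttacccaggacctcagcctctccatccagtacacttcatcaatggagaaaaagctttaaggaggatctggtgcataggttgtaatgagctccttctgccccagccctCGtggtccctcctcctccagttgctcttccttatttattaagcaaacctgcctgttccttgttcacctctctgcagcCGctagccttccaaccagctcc
Gm1070: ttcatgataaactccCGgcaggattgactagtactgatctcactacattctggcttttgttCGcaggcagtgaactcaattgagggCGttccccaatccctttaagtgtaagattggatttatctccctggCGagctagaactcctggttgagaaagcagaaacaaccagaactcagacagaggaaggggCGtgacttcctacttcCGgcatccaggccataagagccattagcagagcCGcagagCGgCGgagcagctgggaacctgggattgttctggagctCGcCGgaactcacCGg
Platr7: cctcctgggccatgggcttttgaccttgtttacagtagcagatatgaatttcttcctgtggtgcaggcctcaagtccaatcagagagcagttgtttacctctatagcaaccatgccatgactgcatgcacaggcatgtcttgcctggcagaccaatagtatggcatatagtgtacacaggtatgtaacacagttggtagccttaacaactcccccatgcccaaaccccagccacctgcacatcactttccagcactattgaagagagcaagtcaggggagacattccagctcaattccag
Snhg1: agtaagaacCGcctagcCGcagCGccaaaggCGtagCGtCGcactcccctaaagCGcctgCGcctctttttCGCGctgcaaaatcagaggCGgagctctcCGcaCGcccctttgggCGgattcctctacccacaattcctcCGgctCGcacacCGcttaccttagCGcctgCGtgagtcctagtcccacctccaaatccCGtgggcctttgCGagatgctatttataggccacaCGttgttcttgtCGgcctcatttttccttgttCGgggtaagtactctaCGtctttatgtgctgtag
Meg3: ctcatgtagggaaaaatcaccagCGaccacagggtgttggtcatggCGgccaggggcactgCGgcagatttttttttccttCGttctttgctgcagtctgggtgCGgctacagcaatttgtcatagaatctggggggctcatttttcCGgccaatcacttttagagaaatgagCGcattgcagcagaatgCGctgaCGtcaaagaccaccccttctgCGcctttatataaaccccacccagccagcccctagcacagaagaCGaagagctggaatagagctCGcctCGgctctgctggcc
The windows hold 4, 3 and 12 CG dinucleotides for the oocyte loci, and 0, 25 and 13 for the loci of the cultured cells, in the order shown. The letters TATAAA begin 25 bases before the start in the windows of C86187 and of Meg3.

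Some members are hosts of microRNAs. The exons of H19 hold miR-675 and the transcript of Mir17hg holds the miR-17 cluster, and both hosts were called lower in MII against EpiC and in GV against ESC. Their RefSeq mature sequences are given with the seed, bases 2 to 8, in capitals.
mmu-miR-675-5p (H19): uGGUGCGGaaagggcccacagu
mmu-miR-675-3p (H19): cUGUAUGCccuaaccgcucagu
mmu-miR-17-5p (Mir17hg): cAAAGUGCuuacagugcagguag
mmu-miR-20a-5p (Mir17hg): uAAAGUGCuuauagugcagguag
mmu-miR-19a-3p (Mir17hg): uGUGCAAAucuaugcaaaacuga
mmu-miR-19b-3p (Mir17hg): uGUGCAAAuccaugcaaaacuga
mmu-miR-92a-3p (Mir17hg): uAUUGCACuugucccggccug
The products miR-17-5p and miR-20a-5p share 1 seed, and miR-19a-3p and miR-19b-3p share another. The values below are levels of the host RNA, and mature microRNAs were not measured.

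Total estimated counts per library ran from 47463546 to 196788239, and replicate 2 was the deeper library in every group. Oocytes and cultured cells were told apart by their defining markers, while no list was chosen to tell MII from GV: all 10 oocyte markers reached 1 TPM in both MII and both GV libraries, and all 8 pluripotency markers did in both EpiC and both ESC libraries. Summed oocyte markers were at 2.88 to 2.94 TPM in EpiC and 8.81 to 11.2 TPM in ESC, against 24650 TPM or more in every oocyte library. Pluripotency markers summed to 593 to 882 TPM in MII and 554 to 833 TPM in GV, against 1138 to 1509 TPM in EpiC and 3094 to 3778 TPM in ESC. Cumulus and granulosa markers summed to 49.5 to 49.8 TPM in MII and 31.1 to 148 TPM in GV, with 1 and 2 of 9 markers at 1 TPM or more in both libraries, and fibroblast markers summed to 76.6 to 143 TPM in EpiC and 3.24 to 4.91 TPM in ESC. Blood and macrophage markers summed to 4.79 to 15.9 TPM in EpiC and 18.4 to 41.0 TPM in ESC, and to at most 4.61 TPM in oocytes. Formative epiblast markers summed to 188 to 640 TPM in EpiC and 35.4 to 57.3 TPM in ESC, and to 128 to 211 TPM in MII and 18.8 to 33.2 TPM in GV. Before its removal Gm42418 held 22.7% and 14.7% of the counts of EpiC and ESC replicate 2, and at most 3.03% elsewhere. The part of these other cells and of ribosomal RNA in the results was not tested. In bulk RNA, fewer cells that hold a transcript and less of it per cell cannot be told apart, and all levels are relative to the other RNAs of the library.

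Oocytes held a larger share of lincRNA, and mostly other lincRNAs, than the cultured cells. LincRNAs made up 2.33% and 2.34% of TPM in MII and 2.58% and 2.25% in GV oocytes, against 0.814% and 1.39% in EpiC and 0.709% and 1.01% in ESC. The oocyte libraries were all above the cultured ones. In the cultured pairs replicate 2 was the higher, and these are the libraries with the large share of Gm42418. At 1 TPM or more in both libraries of a group, 444 lincRNA transcripts were detected in MII, 723 in GV, 399 in EpiC and 437 in ESC. Of the 1093 detected in any group, 576 were detected in oocytes alone, 334 in cultured cells alone and 183 in both. That is 16.7% shared between the kinds of cell, where protein-coding transcripts reached 52.6% and antisense transcripts 16.2%. Within oocytes 408 transcripts were detected at both stages, 36 in MII alone and 315 in GV alone. A level of 100 TPM or more in both libraries was reached by 27 lincRNA transcripts in MII, 38 in GV, 13 in EpiC and 9 in ESC.

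**Figure D1:**
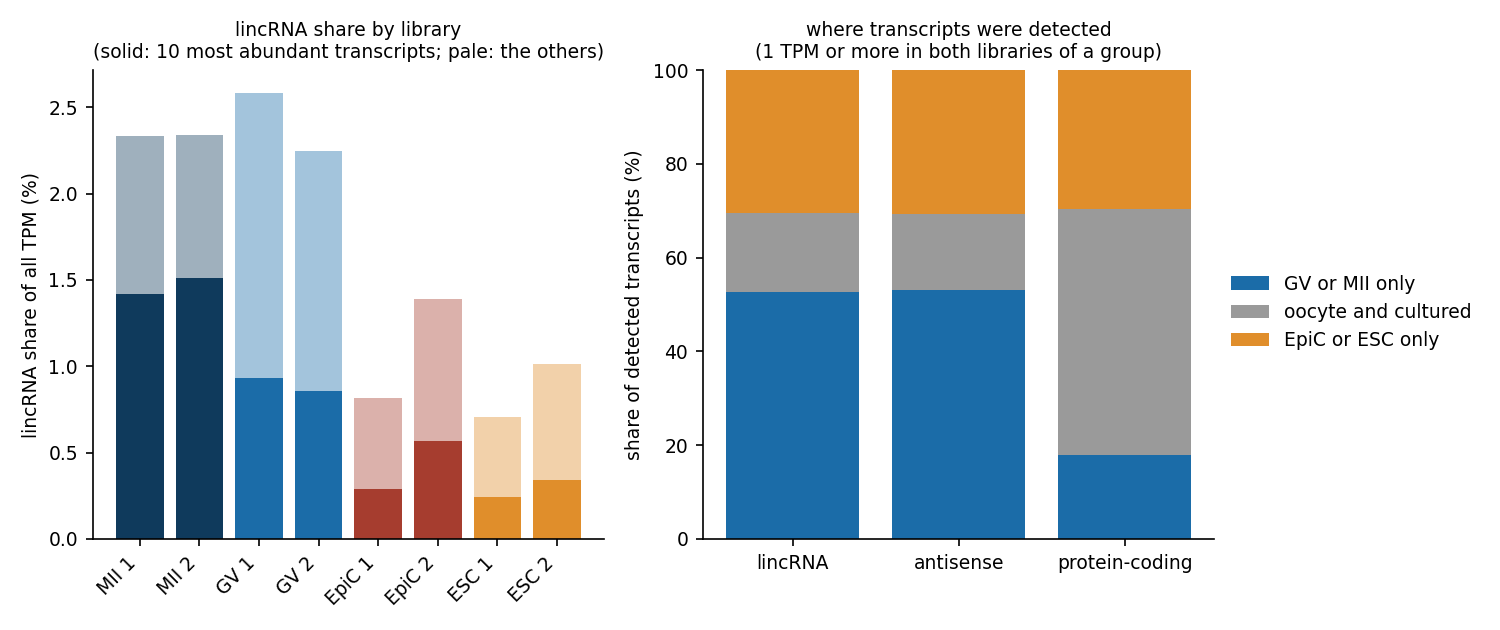
Left, share of all TPM held by lincRNA transcripts in each library, in percent, with the 10 most abundant transcripts of that library in solid colour and the others pale. Right, detected transcripts of 3 classes split by where they reached 1 TPM in both libraries of a group: 52.7% of lincRNAs were detected in MII or GV alone, against 17.9% of protein-coding transcripts.

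The lincRNA of MII oocytes was concentrated in few transcripts. The 10 most abundant held 60.9% and 64.5% of lincRNA TPM in MII, against 36.0% and 38.1% in GV. A single gene, RP23-323L3.5 on chromosome 7, accounted for 41.3% and 43.4% of lincRNA TPM in MII, against 1.11% and 2.67% in GV, summed over its lincRNA transcripts. In GV the leading positions belonged to Gm43042, Gm16211 and Gm38025, which together held 0.371% and 0.873% of lincRNA TPM in MII, against 23.8% and 24.1% in GV.

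The comparison of MII with GV oocytes asks which lincRNAs changed in relative level over meiotic maturation. The edgeR quasi-likelihood test, adjusted by Benjamini-Hochberg over 69571 transcripts of all classes at 0.05, called 35 lincRNA transcripts higher and 170 lower in MII. As a share of those tested, 1.66% were higher, where 5.55% of all transcripts were, and 8.08% lower, where 10.8% of all transcripts were. The median log2 fold change of tested lincRNAs was −1.19, against −0.72 for all transcripts. Without GV replicate 2 edgeR called no transcript of any class, with 51 lincRNAs higher and 371 lower at an unadjusted p below 0.05. Without MII replicate 1 it called none either, with 62 higher and 393 lower at that level. Without GV replicate 1 the lincRNA calls were 6 higher and 34 lower, and without MII replicate 2 they were 3 and 56. Higher calls made up 17.1% of lincRNA calls, 28.6% when libraries were scaled by relative log expression and 7.22% with limma on log2(TPM + 0.1).

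The most abundant lincRNA of MII oocytes belonged to RP23-323L3.5, a locus with 4 lincRNA transcripts that lies 7669 bases from the nearest protein-coding gene, Gm9999. Its main transcript RP23-323L3.5-002, of 2 exons and 2020 bases (chr7:46967747-46975911, minus strand), had 6554 and 7351 TPM in MII, 189 and 430 TPM in GV, 0.0158 and 0.0221 TPM in EpiC and 0.135 and 0.0872 TPM in ESC. Both MII libraries were thus far above both GV libraries, and the cultured cells were near 0. The log2 fold change in MII against GV was 5.15 ± 0.56 (SE, adjusted p = 0.00691). Transcript RP23-323L3.5-001 went the same way, with 1626 and 1142 TPM in MII, against 54.0 and 73.4 TPM in GV (5.10 ± 0.45, adjusted p = 0.00691). The minor RP23-323L3.5-003 had 38.1 and 33.7 TPM in MII, against 0.533 and 1.29 TPM in GV (5.94 ± 0.97, adjusted p = 0.0122).

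Other abundant transcripts rose less. Gm1965-002 (chr6:89141005-89146674, plus strand), 169640 bases from its nearest protein-coding gene, had 1444 and 1560 TPM in MII and 404 and 365 TPM in GV (2.66 ± 0.35, adjusted p = 0.0103). Gm1070-002, whose locus overlaps Smyd1 on chromosome 6, had 1028 and 1643 TPM in MII and 422 and 458 TPM in GV (2.31 ± 0.42, adjusted p = 0.0127). Gm11381-001 on chromosome 13 had 429 and 319 TPM in MII and 87.7 and 72.6 TPM in GV (2.90 ± 0.41, adjusted p = 0.0117). In each of these the 2 stages did not overlap. Gm10857-001 and Gm20052-001, at 141 and 119 TPM and at 113 and 111 TPM in MII, were called higher too, with 71.3 and 43.1 TPM and 48.7 and 44.6 TPM in GV. Zfp813-ps-001 rose with a wide spread, at 96.4 and 38.9 TPM in MII and 14.9 and 4.90 TPM in GV (3.45 ± 0.79, adjusted p = 0.0412), and Gm30043-001 was at 18.3 and 18.0 TPM in MII and 5.08 and 2.84 TPM in GV (2.91 ± 0.72, adjusted p = 0.0397).

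Some of the higher transcripts belong to near-identical copies, so that reads could be split between genes. Gm2309-001 on chromosome X rose to 467 and 422 TPM in MII, against 214 and 123 TPM in GV (2.10 ± 0.49, adjusted p = 0.0271). It shares 94.5% of its 31-base words, in GENCODE M21, with transcripts of other genes, chiefly E330016L19Rik on the same chromosome. E330016L19Rik-001 had 354 and 349 TPM in MII and 185 and 116 TPM in GV and was not called (1.93 ± 0.73, adjusted p = 0.114). In the edgeR fit of counts summed per gene both were higher, Gm2309 (2.55 ± 0.45, adjusted p = 0.00193) and E330016L19Rik (2.38 ± 0.58, adjusted p = 0.00965). The neighbours Gm26581-001 and Gm10825-001 on chromosome 10 share 91.0% and 90.9% of theirs, mostly with each other, and had 42.8 and 31.9 TPM and 38.9 and 32.8 TPM in MII, against 7.43 and 2.76 TPM and 6.63 and 2.84 TPM in GV. Their log2 fold changes were 3.58 ± 0.54 (adjusted p = 0.00847) and 3.63 ± 1.01 (adjusted p = 0.0494).

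Abundant GV transcripts that fell are the counterpart. Gm43042-001 on chromosome 5 fell to 43.8 and 107 TPM in MII, against 2724 and 2487 TPM in GV (−4.38 ± 0.68, adjusted p = 0.00879). Gm16211-001 on chromosome 4, 2648 bases from the zinc finger gene Zfp534, fell to 29.1 and 69.0 TPM in MII, against 2066 and 1825 TPM in GV (−4.58 ± 0.80, adjusted p = 0.0115). Gm38025-001 on chromosome 3 fell to 13.7 and 28.3 TPM in MII, against 1357 and 1107 TPM in GV (−5.15 ± 0.79, adjusted p = 0.00857). All 3 share sequence with other genes, over 77.0%, 38.8% and 68.8% of their 31-base words, so their levels are uncertain to that extent. Loci of mostly unique sequence moved alike: 1700018B24Rik-001 had 60.3 and 76.1 TPM in MII, against 415 and 499 TPM in GV (−2.05 ± 0.44, adjusted p = 0.021). Gm43303-001 had 18.7 and 18.5 TPM in MII, against 458 and 446 TPM in GV (−3.91 ± 0.58, adjusted p = 0.00828). For 9130204K15Rik-003, a model of 181 bases, the values were 29.6 and 13.8 TPM in MII, against 465 and 399 TPM in GV (−3.66 ± 0.71, adjusted p = 0.0195).

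**Figure D2:**
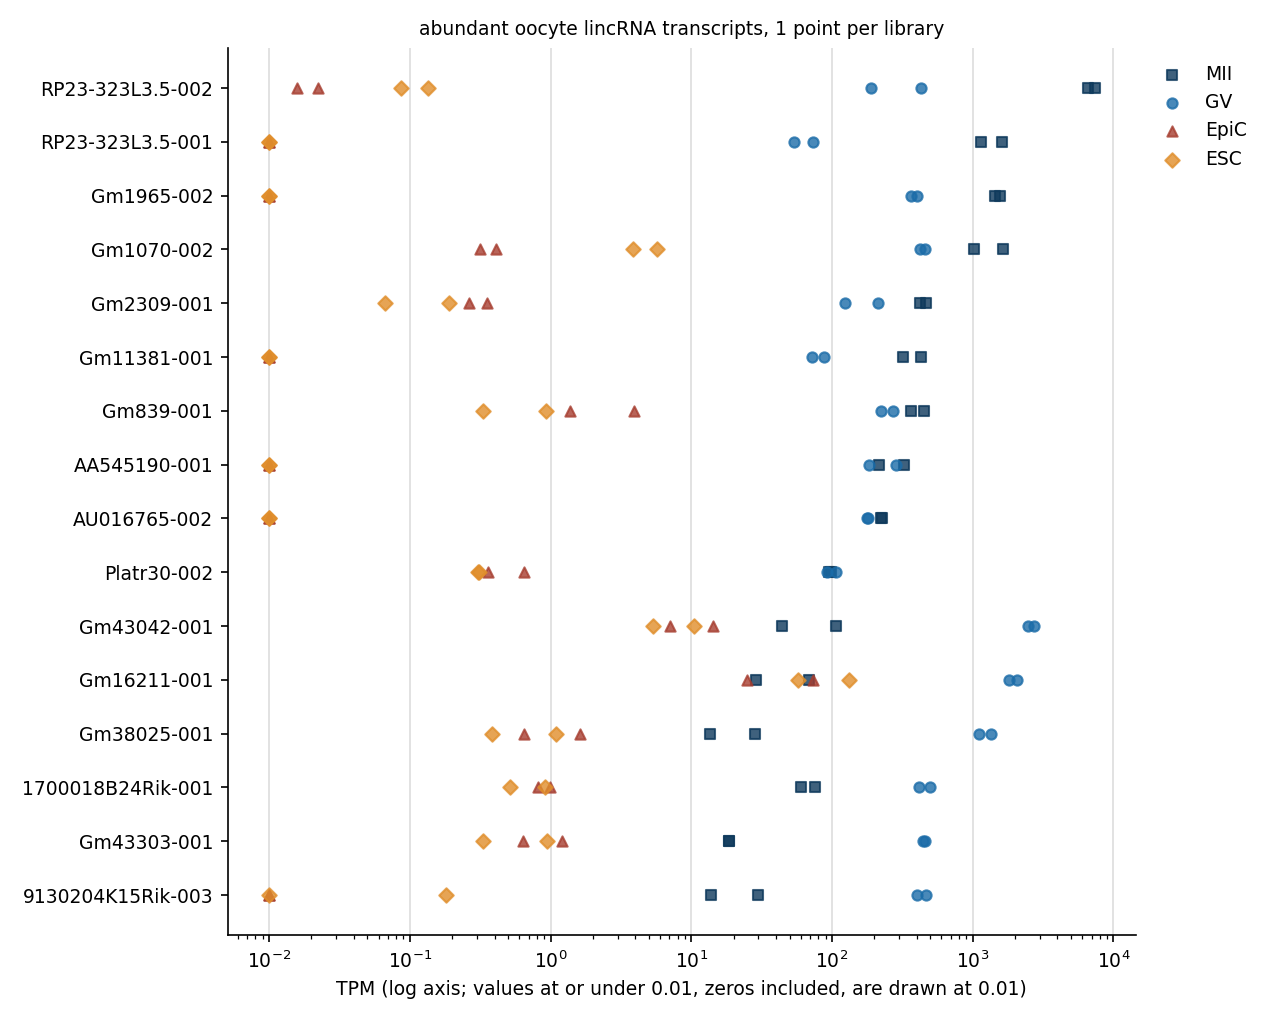
TPM of 16 abundant oocyte lincRNA transcripts in each of the 8 libraries, on a log axis, with MII as squares, GV as circles, EpiC as triangles and ESC as diamonds. RP23-323L3.5-002 sits at 6554 and 7351 TPM in MII, right of its GV values, and Gm43042-001, Gm16211-001 and Gm38025-001 show the opposite order of the stages.

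Among called transcripts of at least 5 TPM in GV, those with the lowest log2 fold changes were of modest abundance. 1700116B05Rik-001 was at 0 and 0.185 TPM in MII and 17.2 and 11.4 TPM in GV. Mdrl-201 was at 0 and 0.103 TPM in MII and 6.08 and 4.33 TPM in GV. Gm20685-001 was at 0.0710 and 0.155 TPM in MII and 13.4 and 6.43 TPM in GV. In each of the 3 the MII libraries were near 0 and below both GV libraries. RP23-338P10.4-001 had 0.141 and 0.119 TPM in MII and 14.0 and 5.51 TPM in GV. Gm36070-001 had 0.147 and 0.364 TPM in MII and 28.7 and 10.3 TPM in GV. Log2 fold changes of these 5 ran from −6.10 to −5.44, with adjusted p from 0.0241 to 0.0377. Gm26901-004, at 0.170 and 0 TPM in MII and 6.66 and 6.12 TPM in GV (−5.69 ± 1.51, adjusted p = 0.0422), was 1 of 3 lincRNA transcripts of its gene, and the sum of all its transcripts was not called (0.76 ± 0.76, adjusted p = 0.462). Fbxw27-003, at 117 and 79.3 TPM in MII and 631 and 444 TPM in GV (−1.78 ± 0.43, adjusted p = 0.038), is typed protein-coding in the later GENCODE M21, as are 27 of the transcripts in all.

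Set against the cultured cells, more lincRNAs were called higher than lower in oocytes, in MII against EpiC not under every setting. In GV against ESC, 725 lincRNA transcripts were called higher, which is 34.4% where 19.2% of all transcripts were, and 242 lower, which is 11.5% where 16.7% of all transcripts were. In MII against EpiC, 617 were called higher, which is 29.3% where 18.7% of all transcripts were, and 386 lower, which is 18.3% where 27.4% of all transcripts were. Median log2 fold changes of lincRNAs were 1.07 and −0.29 in these comparisons, or 1.07 and −0.18 with transcripts absent from a group at their bound, while those of all transcripts were −0.72 and −1.98. The 4 groups are all different libraries here, and 548 transcripts were higher in both comparisons, 75.6% of the GV calls and 88.8% of the MII calls, while 190 were lower in both, 78.5% and 49.2%. Higher calls were 75.0% of lincRNA calls in GV against ESC and 60.4% with limma on log2(TPM + 0.1). In MII against EpiC they were 61.5%, but 41.6% with that setting, 45.4% with limma on log2(TPM + 1) and 49.6% with the compared groups alone, so higher calls were not the majority there under these 3. Without single libraries the lower calls ranged from 87 to 119 in GV against ESC and from 205 to 295 in MII against EpiC, and the higher calls from 435 to 535 and from 455 to 546.

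**Figure D3:**
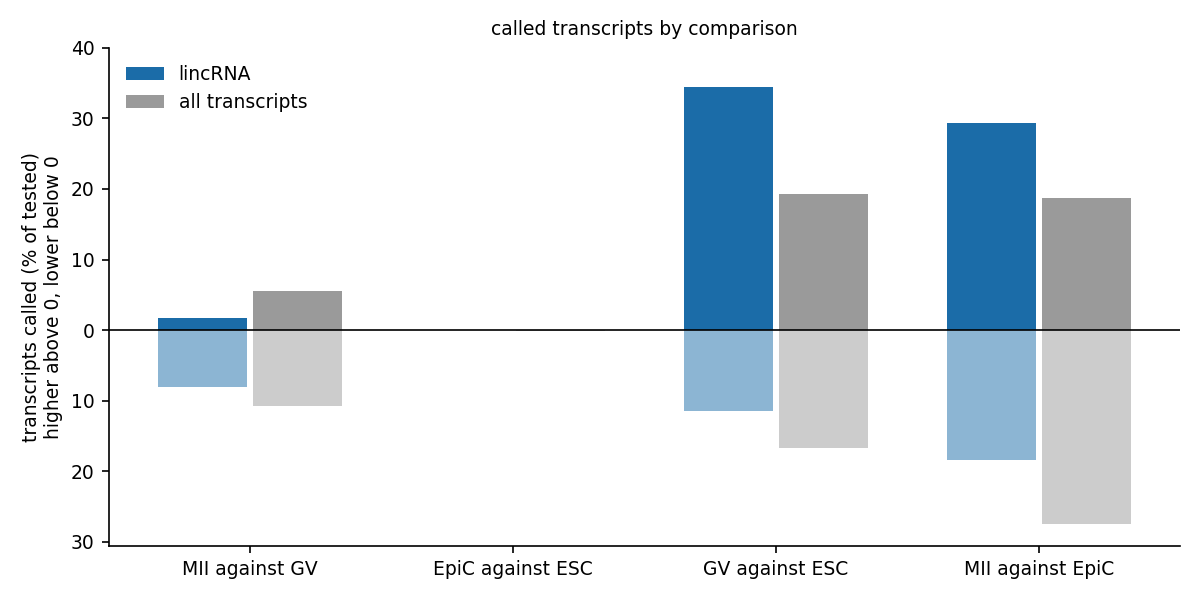
Share of tested transcripts called in each comparison at an adjusted p of 0.05, in percent, higher above the zero line and lower below it in paler colour, for lincRNAs in blue and all transcripts in grey. In GV against ESC 34.4% of tested lincRNAs and 19.2% of all transcripts were higher; in EpiC against ESC both shares are too small to see.

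Several oocyte lincRNAs had no count in the cultured cells, and folds against these are lower bounds set at 3 counts per library. Gm1965-002 had 1444 and 1560 TPM in MII and 404 and 365 TPM in GV, with 0 in all 4 cultured libraries. That is at least 128400-fold higher in MII than in EpiC and at least 22670-fold higher in GV than in ESC. RP23-323L3.5-001 was at least 168800-fold higher in MII than in EpiC, and at least 5503-fold higher in GV than in ESC. AA545190-001, a 4-exon transcript of chromosome 6 lying 920654 bases from the nearest protein-coding gene, had 323 and 215 TPM in MII and 284 and 183 TPM in GV, where the stages overlapped, and 0 in the cultured cells. It was at least 13070-fold higher in MII than in EpiC and at least 7885-fold higher in GV than in ESC. AU016765-002 of chromosome 17 had 221 and 226 TPM in MII and 178 and 181 TPM in GV. Gm17751-001 of chromosome 1 had 46.5 and 35.7 TPM in MII and 173 and 99.3 TPM in GV. Both were at 0 in EpiC and ESC, and the first lay higher in MII and the second higher in GV. D6Ertd474e-001 had 239 and 173 TPM in MII and 98.3 and 56.0 TPM in GV, and its only value above 0 in cultured cells was 0.0241 TPM in EpiC replicate 2. Gm839-001, the neighbour of Gm1965 on chromosome 6, had 453 and 362 TPM in MII and 270 and 225 TPM in GV, 1.37 and 3.89 TPM in EpiC and 0.332 and 0.925 TPM in ESC. Chromosome 6 held 10.6% of the lincRNAs higher in MII against EpiC and 9.15% of those higher in GV against ESC, where it held 6.40% of all lincRNAs tested, and chromosome X held 6.05% and 4.99% against 3.25%.

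At the other end stood lincRNAs of the stem cells. Lncenc1-002, named for its expression in naive embryonic stem cells, had no count in any MII or GV library, 17.9 and 24.4 TPM in EpiC and 131 and 143 TPM in ESC, at least 336.5-fold lower in MII than in EpiC and at least 4301-fold lower in GV than in ESC. The single-exon Gm44739-001 was at 0 in MII and at 1.14 and 0.308 TPM in GV, against 54.8 and 184 TPM in EpiC and 22.7 and 48.2 TPM in ESC, and shares 87.5% of its 31-base words with other genes. The single-exon 4632415L05Rik-001 was at 0 in MII and at 0.102 and 0.116 TPM in GV, against 5.45 and 10.1 TPM in EpiC and 2.98 and 6.17 TPM in ESC. Every cultured library lay above every oocyte library for both. Gm37381-001 on chromosome 1, 1 of the leading lincRNAs of cultured cells, had 7.44 and 8.45 TPM in MII and 26.3 and 17.5 TPM in GV, against 275 and 407 TPM in EpiC and 301 and 370 TPM in ESC. Gm43673-001 of chromosome 3 had 4.26 and 3.50 TPM in MII and 11.2 and 8.34 TPM in GV, against 144 and 249 TPM in EpiC and 186 and 219 TPM in ESC, and was called lower in both comparisons. Gm43549-001 and Gm45090-001 were also abundant in cultured cells, at 304 and 401 TPM and at 107 and 463 TPM in EpiC, but share 93.2% and 100% of their 31-base words with other genes.

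The replicates of the cultured cells disagreed, and not for a few members alone. At 1 TPM or more, 434 and 645 lincRNA transcripts were detected in EpiC replicates 1 and 2, and 454 and 645 in those of ESC. Examples with wide gaps follow. Gm26917-001, which lies beside Gm42418 on chromosome 17 and has ribosomal RNA like sequence, was at 28.0 and 1032 TPM in EpiC and 30.7 and 396 TPM in ESC. Gm26870-201 on chromosome 9 was at 6.53 and 206 TPM in EpiC and 1.73 and 24.9 TPM in ESC. Malat1-001 was at 25.5 and 205 TPM in EpiC and 25.0 and 161 TPM in ESC. For all 3 the high value is that of replicate 2, where Gm42418 is high as well. The ribosomal RNA like list, Gm26917 and AY036118 with 2 tested transcripts, had 1 lower and none higher in each of MII against EpiC and GV against ESC and no call in the other comparisons. AY036118-001 split the oocytes in the same way, at 9.56 and 197 TPM in MII and 0.259 and 126 TPM in GV.

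Imprinted lincRNAs were lower in oocytes than in the cultured cells for most tested transcripts. The list holds H19, a maternally expressed RNA of the Igf2 domain, and Meg3, Rian and Mirg, the maternally expressed RNAs of the Dlk1 to Dio3 domain on chromosome 12. Of 38 tested transcripts, none were higher. In MII against EpiC 29 were lower, which is 76.3% where 27.4% of all transcripts were, and in GV against ESC 23, which is 60.5% where 16.7% of all were. In MII against GV 7 were lower, which is 18.4% where 10.8% of all were, and between 1 and 8 were under the alternatives fitted to all libraries compared, with medians from −2.44 to −0.09. Median log2 fold changes were −7.95, −3.65 and −2.33 in these 3 comparisons in the order given, or −5.90, −3.46 and −1.94 with transcripts absent from a group at their bound, and those of all transcripts are given above. H19-001 had no count in any MII or GV library, 507 and 1017 TPM in EpiC and 3.83 and 5.92 TPM in ESC. It was at least 9941-fold lower in MII than in EpiC and at least 125-fold lower in GV than in ESC. Meg3-005 had 0 and 0.0333 TPM in MII and 0.586 and 1.15 TPM in GV, against 129 and 81.6 TPM in EpiC and 45.7 and 32.5 TPM in ESC. Rian-006, of a gene known for snoRNAs made from its introns, had 0.138 and 0.217 TPM in MII and 1.48 and 3.17 TPM in GV, against 233 and 78.8 TPM in EpiC and 89.0 and 47.2 TPM in ESC. Both transcripts fell in MII against GV, Meg3-005 with a log2 fold change of −4.59 ± 0.92 (adjusted p = 0.0171) and Rian-006 with one of −3.01 ± 0.74 (adjusted p = 0.033). Over all transcripts of the gene Rian was lower too (−2.66 ± 0.57, adjusted p = 0.00491), while Meg3 was not called (−0.02 ± 0.36). Summed over its lincRNA transcripts, Meg3 had 4.42 and 7.33 TPM in MII and 5.40 and 11.9 TPM in GV. Mirg-007 had 0 and 0.0183 TPM in MII and 0 and 0.312 TPM in GV, against 28.0 and 18.2 TPM in EpiC and 9.49 and 6.91 TPM in ESC. Of the 31-base words of Meg3-005, 48.2% are also in the overlapping model Gm27000.

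Hosts of microRNAs were called lower in oocytes against cultured cells more often than higher, and 3 of the 4 imprinted genes are also in this list. Of 52 tested transcripts, none were higher and 35 lower in MII against EpiC, a lower share of 67.3% where 27.4% of all transcripts were lower. GV against ESC gave 1 higher and 25 lower, a lower share of 48.1% where 16.7% of all were. In MII against GV 1 was higher and 6 lower, a lower share of 11.5%, near the 10.8% of all transcripts. Medians were −8.07, −3.71 and −2.19, or −4.61, −3.34 and −1.44 with bounds. Mir17hg-001 had 0.643 and 0.517 TPM in MII and 0.255 and 0.207 TPM in GV, against 32.3 and 23.1 TPM in EpiC and 9.45 and 10.1 TPM in ESC. It was thus lower in both oocyte stages, with log2 fold changes of −3.79 ± 0.47 in MII against EpiC (adjusted p = 0.00105) and −4.33 ± 0.48 in GV against ESC (adjusted p = 0.0011), and was the single host that was higher in MII than in GV (2.01 ± 0.44, adjusted p = 0.0221), at a low level in both. Mir124a-1hg-001 was at 0 in oocytes, at 0.182 and 0.266 TPM in EpiC and 1.89 and 2.00 TPM in ESC. Mir155hg-001 was at 0 in MII and 0.345 and 0.365 TPM in GV, against 0.189 and 0.465 TPM in EpiC and 0.131 and 0.204 TPM in ESC. Dleu2-015, of the gene that holds miR-15a and miR-16, was at 0 in oocytes, at 1.34 and 3.79 TPM in EpiC and 3.13 and 6.50 TPM in ESC. Over its 13 lincRNA transcripts Dleu2 was present in oocytes, at 1.55 and 0.652 TPM in MII and 1.07 and 1.34 TPM in GV. The sums were 2.10 and 7.78 TPM in EpiC and 4.27 and 14.2 TPM in ESC.

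Hosts of small nucleolar RNAs, which guide the modification of ribosomal RNA, were called lower in oocytes for most tested transcripts. Of 36 tested, 1 was higher, 26 were lower and 9 were not called in MII against EpiC, a lower share of 72.2% where 27.4% of all transcripts were lower. Against ESC, GV had 1 higher, 20 lower and 15 not called, a lower share of 55.6% where 16.7% of all were. In MII against GV none were higher and 6 lower, a share of 16.7% where 10.8% of all were. Medians were −6.50, −4.46 and −2.39, or −4.97, −4.31 and −2.23 with bounds. Snhg1-001 had 3.32 and 3.36 TPM in MII and 42.8 and 28.8 TPM in GV, against 234 and 509 TPM in EpiC and 209 and 307 TPM in ESC. It fell in MII against GV (−2.71 ± 0.53, adjusted p = 0.016), in MII against EpiC (−5.01 ± 0.59, adjusted p = 0.000915) and in GV against ESC (−1.77 ± 0.51, adjusted p = 0.0327). Snhg6-001 had 5.88 and 6.16 TPM in MII and 52.9 and 37.5 TPM in GV, against 40.5 and 39.2 TPM in EpiC and 61.2 and 54.8 TPM in ESC, and was called only in MII against GV (−2.20 ± 0.51, adjusted p = 0.0264). Summed over all its transcripts, the gene Snhg6 was also lower in MII against EpiC (−2.96 ± 0.38, adjusted p = 0.000142) and in GV against ESC (−1.30 ± 0.36, adjusted p = 0.0115). Snhg5-005 had 1.24 and 1.20 TPM in MII and 8.69 and 9.02 TPM in GV, against 71.3 and 53.5 TPM in EpiC and 59.3 and 44.9 TPM in ESC. Snhg12-001 was at 0 in MII and at 0 and 0.0754 TPM in GV, against 32.4 and 44.5 TPM in EpiC and 29.4 and 50.3 TPM in ESC. The transcript called higher was Snhg18-001, at 4.25 and 3.79 TPM in MII and 17.7 and 19.3 TPM in GV, against 1.56 and 1.23 TPM in EpiC and 1.87 and 1.32 TPM in ESC (3.32 ± 0.53, adjusted p = 0.00306, and 4.62 ± 0.57, adjusted p = 0.00158). Gas5-001, with 57.8 and 44.0 TPM in MII and 53.6 and 39.9 TPM in GV, against 134 and 245 TPM in EpiC and 152 and 282 TPM in ESC, was not called in any comparison. Over all transcripts of the gene Gas5 was lower in MII against EpiC (−2.64 ± 0.34, adjusted p = 0.000141) and in GV against ESC (−3.71 ± 0.35, adjusted p = 4.41e-05).

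**Figure D4:**
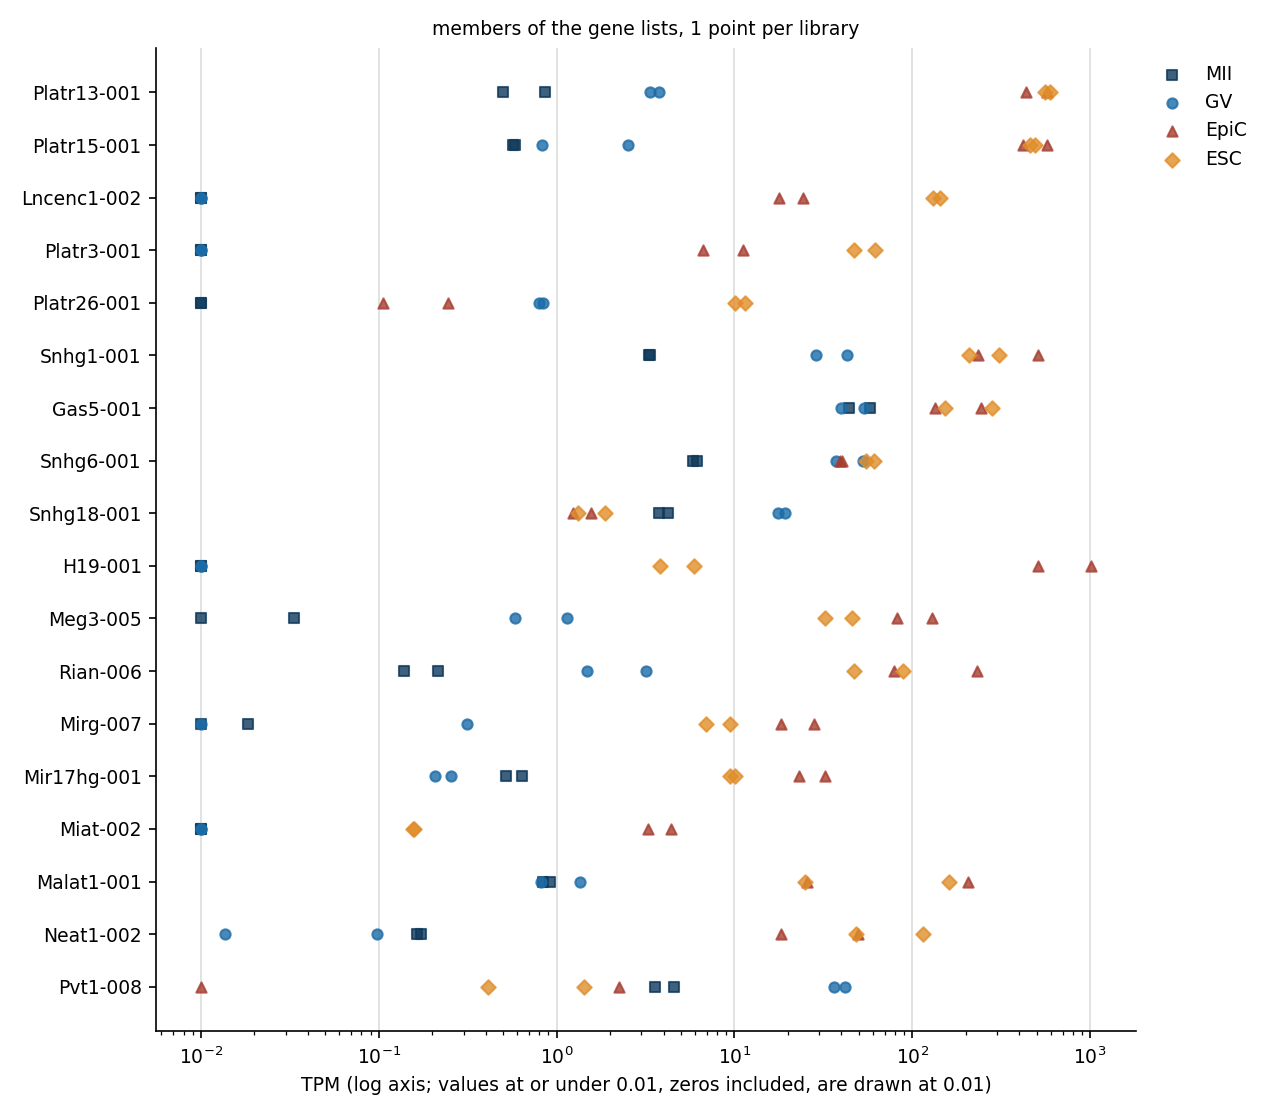
TPM of 18 lincRNA transcripts from the gene lists in each of the 8 libraries, on a log axis, with MII as squares, GV as circles, EpiC as triangles and ESC as diamonds. H19-001 and Lncenc1-002 have no count in oocytes, Snhg18-001 and Pvt1-008 have their highest values in GV, and the 2 replicates of Malat1-001 lie apart in EpiC and ESC.

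LincRNAs named for stem cells, chiefly the Platr series of pluripotency-associated transcripts, mostly followed the cultured cells. Of 32 tested transcripts, 2 were higher and 18 lower in MII against EpiC, a lower share of 56.2% where 27.4% of all transcripts were lower. For GV against ESC 3 were higher and 17 lower, a lower share of 53.1% where 16.7% of all were. In MII against GV none were higher and 5 lower, a share of 15.6% where 10.8% of all were. Medians were −5.09, −4.12 and −0.56, or −3.67, −3.45 and −0.56 with bounds. Platr13-001 had 0.860 and 0.499 TPM in MII and 3.79 and 3.34 TPM in GV, against 436 and 570 TPM in EpiC and 561 and 593 TPM in ESC. Platr15-001 had 0.582 and 0.568 TPM in MII and 2.53 and 0.827 TPM in GV, against 418 and 570 TPM in EpiC and 458 and 490 TPM in ESC. Platr3-001, Platr7-201, Platr11-001 and Platr4-002 had no count in oocytes, and Platr3-001 was at 11.3 and 6.69 TPM in EpiC and 61.5 and 46.9 TPM in ESC. The exceptions went the other way: Platr30-002 had 95.1 and 98.6 TPM in MII and 107 and 92.0 TPM in GV, against 0.358 and 0.651 TPM in EpiC and 0.305 and 0.312 TPM in ESC (9.33 ± 0.54, adjusted p = 0.000196, and 9.40 ± 0.55, adjusted p = 0.000357). All of its 31-base words are also in Gm17575, so the gene of origin is uncertain. Platr23-001 was called higher in GV against ESC at very low levels, 0.128 and 0.143 TPM against 0.0123 and 0.0158 TPM.

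In the main fit, nuclear and general lincRNAs were called lower in MII against EpiC about as often as all transcripts. Against cultured cells they were called lower more often than lincRNAs as a class. Of 41 tested, 12 were lower and none higher in MII against EpiC, a lower share of 29.3%, near the 27.4% of all transcripts. GV against ESC gave 9 lower and 2 higher, a lower share of 22.0% where 16.7% of all were, and in MII against GV 3 were lower and none higher, a share of 7.32% where 10.8% of all were. Of all lincRNAs tested, 18.3%, 11.5% and 8.08% were lower in these comparisons in the order given. Under the alternatives fitted to all libraries compared, over differing numbers tested, 10 to 32 of the list were lower in MII against EpiC. In GV against ESC 9 to 19 were, and in MII against GV 3 to 8. Medians were −2.34, −2.07 and −1.40, or −1.56, −2.07 and −1.40 with bounds. Malat1-001, of nuclear speckles, had 0.840 and 0.924 TPM in MII and 0.818 and 1.36 TPM in GV, against the EpiC and ESC values given above, and was lower in both comparisons (−5.25 ± 1.26, adjusted p = 0.0141, and −5.30 ± 1.26, adjusted p = 0.0177). Neat1-002, the scaffold of paraspeckles, had 0.165 and 0.173 TPM in MII and 0.0136 and 0.0973 TPM in GV, against 18.2 and 49.5 TPM in EpiC and 48.3 and 116 TPM in ESC. Epb41l4aos-001 had 0.345 and 0.281 TPM in MII and 2.79 and 2.54 TPM in GV, against 107 and 117 TPM in EpiC and 69.9 and 84.8 TPM in ESC, and was lower in MII than in GV too (−2.41 ± 0.56, adjusted p = 0.028). Crnde-002 fell between the oocyte stages, to 0.0932 and 0.201 TPM in MII, against 2.84 and 2.94 TPM in GV (−3.47 ± 0.92, adjusted p = 0.0414). Pvt1-008, of the gene next to Myc, had 4.57 and 3.56 TPM in MII and 41.7 and 36.3 TPM in GV, against 0 and 2.25 TPM in EpiC and 0.409 and 1.43 TPM in ESC, and was higher in GV against ESC (6.47 ± 1.81, adjusted p = 0.0301).

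The 2 lists with fewest tested members after the ribosomal RNA like one had few calls. Of the X inactivation genes Ftx, Jpx and Xist, 6 transcripts were tested and none was higher, while 3 were lower in MII against EpiC, where 27.4% of all transcripts were, and 2 in GV against ESC, where 16.7% of all were, all of Ftx. Ftx-001 was at 0 in MII and at 0 and 0.0111 TPM in GV, against 3.75 and 5.23 TPM in EpiC and 0.486 and 1.20 TPM in ESC. The developmental regulators, RNAs of Hox clusters and of early organs, had 9 tested transcripts, with 1 lower and none higher in MII against EpiC and 1 higher and 2 lower in GV against ESC. The lower shares were 11.1% and 22.2%, where 27.4% and 16.7% of all transcripts were lower. Bvht-001, known from cardiac commitment in mouse cells, had 0.689 and 1.32 TPM in MII and 0.235 and 0.653 TPM in GV, against 3.83 and 6.05 TPM in EpiC and 12.4 and 24.2 TPM in ESC, and was lower in GV against ESC (−4.19 ± 1.02, adjusted p = 0.0188). Pantr1-001 was at 0 in MII, 0.729 and 0.813 TPM in GV and 0 in the cultured cells. Over its 12 lincRNA transcripts Pantr1 had 0.207 and 0.178 TPM in MII and 1.26 and 1.42 TPM in GV. In EpiC the sums were 0.202 and 0 TPM, and in ESC 0.163 and 0.454 TPM. The gene was not called in GV against ESC (2.5 ± 1.2, adjusted p = 0.105). Hotair-001 and Hottip-002 stayed at or below 0.0454 TPM in every library and were not tested.

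Few lincRNAs passed the threshold over the exit from the stem cell state. In EpiC against ESC 1 transcript was called higher, H19-001, which is 0.0475% of those tested where 0.0517% of all transcripts were, and 1 lower, Gm1070-002, where 0.0877% of all transcripts were. At an unadjusted p below 0.05 there were 72 higher and 106 lower. H19-001 rose to 507 and 1017 TPM in EpiC, against 3.83 and 5.92 TPM in ESC (7.27 ± 0.65, adjusted p = 0.0465), and Gm1070-002 fell to 0.315 and 0.409 TPM in EpiC, against 3.83 and 5.74 TPM in ESC (−3.73 ± 0.45, adjusted p = 0.0452). Neither call held without any 1 of the 4 libraries, where edgeR left 31 to 80 higher and 57 to 104 lower at an unadjusted p below 0.05, or with the compared groups fitted alone, where 80 were higher and 87 lower at that level. DESeq2 on the same counts called 26 higher and 55 lower, which is 1.24% and 2.61% where 2.18% and 2.20% of all transcripts were. Counts summed per gene gave 13 genes higher and 34 lower of 1638, which is 0.794% and 2.08% where 2.64% and 2.85% of all genes were.

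Summed per gene, more of the listed loci passed. Meg3 had 442 and 509 TPM over its lincRNA transcripts in EpiC, against 159 and 182 TPM in ESC, and was higher (1.60 ± 0.37, adjusted p = 0.0372). Miat, a nuclear RNA of neural tissue, had 4.64 and 5.44 TPM in EpiC, against 0.209 and 0.306 TPM in ESC (4.58 ± 0.61, adjusted p = 0.00536). Lncenc1 fell to 24.1 and 32.5 TPM in EpiC, against 168 and 199 TPM in ESC (−2.71 ± 0.36, adjusted p = 0.00541). Platr26 fell to 0.246 and 0.106 TPM in EpiC, against 10.1 and 11.4 TPM in ESC (−6.01 ± 0.87, adjusted p = 0.00784), and Platr6, Platr11, Platr25 and 9130204K15Rik were lower as well. Of the same loci, the single transcripts Lncenc1-002 (adjusted p = 0.124), Miat-002 (0.0998) and Platr26-001 (0.121) did not pass. Rian at 830 and 343 TPM in EpiC and 285 and 169 TPM in ESC, Mirg at 79.1 and 64.8 TPM in EpiC and 22.8 and 20.0 TPM in ESC, and Mir17hg at 32.3 and 23.1 TPM in EpiC and 9.45 and 10.1 TPM in ESC did not pass per gene either (adjusted p = 0.249, 0.0763 and 0.0526). Stem cell, snoRNA host, nuclear, X inactivation and developmental lists had no transcript called in this comparison by edgeR. Under the other settings fitted to all libraries compared, up to 10 stem cell transcripts and 1 developmental transcript were called lower, and up to 3 nuclear and 3 X inactivation transcripts higher.

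Transcripts higher in oocytes differed in structure and place from those lower there. Median length was 856 bases for the 617 higher in MII against EpiC and 1224 bases for the 386 lower, and 841 and 1160 bases in GV against ESC. Single-exon models were 1.96% of the higher and 14.1% of the lower in MII against EpiC, and 2.08% and 12.2% in GV against ESC. The median distance to the nearest protein-coding gene was 42720 bases for the higher and 10755 bases for the lower in MII against EpiC, and 38910 and 13352 bases in GV against ESC. Median GC content was alike, 46.4% and 47.4% in MII against EpiC and 46.6% and 47.3% in GV against ESC. Among all lincRNAs tested the median length was 1139 bases, 7.12% were single-exon models, the median distance was 16816 bases and median GC content was 46.9%. The higher and lower groups were set by the same tests, and their differences had no test of their own.

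The nearest protein-coding gene, tested on its summed counts, was more often higher than lower beside a lincRNA higher in MII against EpiC or in GV against ESC. Pairs were counted per lincRNA transcript, so transcripts of 1 locus can repeat the same neighbour. A transcript of a gene typed protein-coding in GENCODE M21 could be its own neighbour, as Fbxw27-003 was. Such a pair falls within 5 kb on the same strand. Agreement in such a pair was set in advance, and the number of such pairs was not determined. The shares on the same strand within 5 kb therefore cannot be read as agreement between separate genes. In MII against EpiC the nearest gene was higher in 70.3% and lower in 10.8% of 37 lincRNA transcripts within 5 kb on the same strand. Within 5 kb on the opposite strand it was higher in 65.4% and lower in 15.8% of 133, and farther than 5 kb in 46.4% and 22.0% of 414. Among all 17367 protein-coding genes tested 32.7% were higher and 41.1% lower. In GV against ESC the neighbour was higher for 57.8% of 45 lincRNAs on the same strand, 49.1% of 167 on the opposite strand and 40.2% of 475 farther away, where 31.3% of all protein-coding genes were. Beside lincRNAs lower in MII against EpiC, the neighbour was lower for 54.8% of 42, 47.4% of 152 and 54.9% of 173. Among those lower in GV against ESC it was lower for 36.4% of 33, 38.4% of 86 and, farther away, 50.4% of 113. Of all protein-coding genes tested, 31.8% were lower in GV against ESC. Both shares within 5 kb were near that share, and the order with distance was opposite to that beside the higher lincRNAs. Beside lincRNAs lower in MII against GV, the neighbour was higher in 23.5% and lower in 35.3% of 17 within 5 kb on the same strand. On the opposite strand within 5 kb it was higher in 32.8% and lower in 34.5% of 58. Farther than 5 kb it was higher in 27.9% and lower in 16.3% of 86. Among all protein-coding genes tested, 22.7% were higher and 26.9% lower in that comparison. The part of reads that run on from a neighbour was not tested.

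RefSeq promoter windows, 300 bases each, were matched by symbol for 1498 of 3977 lincRNA gene symbols. Genes with a transcript higher in each oocyte comparison, which need not be the same transcript, had 211 windows. Their median CpG observed over expected ratio was 0.249, and 17.5% were above 0.6. Genes lower in both, defined in the same way, had 59 windows with a median ratio of 0.595, and 49.2% were above 0.6. All matched lincRNA genes had 0.260 and 18.1%, and all 27025 RefSeq windows had 0.388 and 36.4%. Median GC content of the windows was 48.7% for the higher and 53.0% for the lower genes. The ratio was 0.280 for C86187, 0.156 for Gm1965 and 0.585 for Gm1070, against 0 for Platr7, 1.07 for Snhg1 and 0.602 for Meg3. The oocyte loci shown were thus all below 0.6, and those of the cultured cells lay on both sides of it. Among the genes higher in both, Snhg18 was above it, with 0.769. Platr10, with 0.0604, and Gm31693, the current symbol of Gm43673, with 0.0868, are also CpG-poor loci called lower in both. Some RefSeq starts lie far from the start of the transcript measured, as for Lncenc1, at −47731 bases from it, and Mir99ahg, at 93011 bases, where negative values lie before it. In a check chosen after seeing the data, windows within 1000 bases of the start of a transcript that put the gene in its class numbered 161 of 211 for the higher and 51 of 59 for the lower genes. Their median ratios were 0.289 and 0.611, with 20.5% and 54.9% above 0.6, beside 0.280 and 20.2% for 1230 lincRNA genes. The letters TATAAA, on either strand, were in 16.6% of the higher windows, 15.3% of the lower and 14.2% of all windows. On the sense strand 40 to 15 bases before the start they were in 2.37%, 6.78% and 2.22%.

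**Figure D5:**
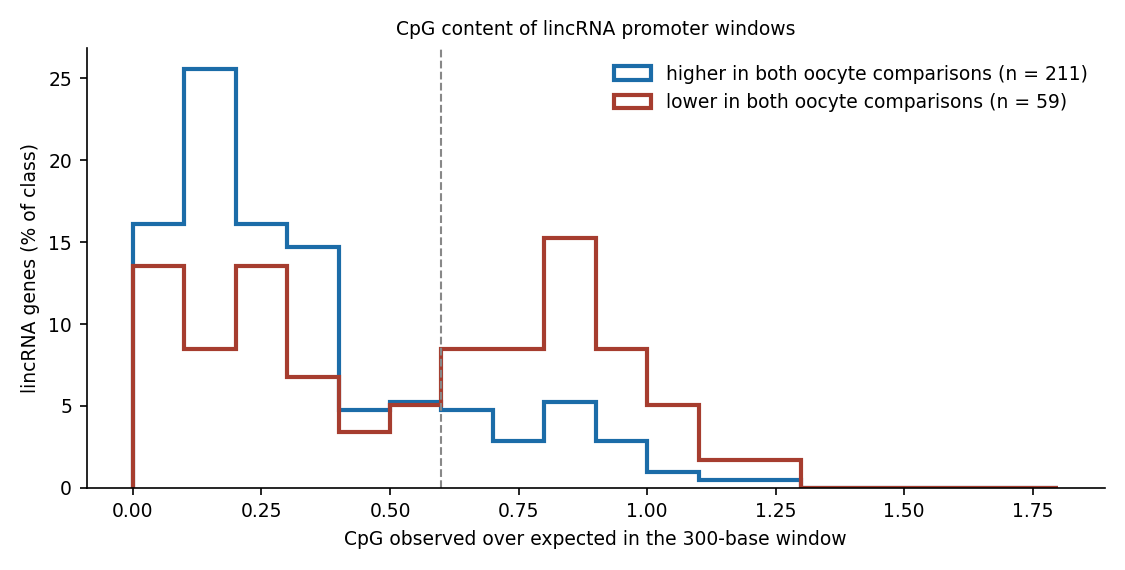
CpG observed over expected ratio of RefSeq promoter windows of lincRNA genes, as the percent of genes per bin of 0.1, for the 211 genes higher and the 59 genes lower in both oocyte comparisons. The higher genes peak at low ratios with a median of 0.249, the lower genes spread past the dashed line at 0.6, and no test was made.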

How the data were processed

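Each of the 8 libraries has 1 table with, for every transcript, a length, an effective length, an estimated count and a TPM value. The estimated counts and TPM values were deposited by the authors, made with kallisto 0.43 according to the submitters' processing notes, which name mm10. The labels give TRIzol extraction and stranded Illumina paired-end libraries. No source used here says whether poly(A) RNA was selected. Kallisto divides reads among transcripts, and the error of that division is not in the deposited tables and not covered here, so transcripts sharing many 31-base words with other genes are marked as uncertain.

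Gm42418 was left out, and the TPM of each library was rescaled so that the other transcripts add up to the full total. Estimated counts were rounded to whole numbers and fitted with edgeR 4.0.16 in R 4.3.3 (filterByExpr, TMM, robust quasi-likelihood, 1 mean per group, all 8 libraries, 4 residual degrees of freedom), with Benjamini-Hochberg adjustment over all 69571 transcripts at 0.05. The fit was tested on simulated counts with changes placed in abundant transcripts only, in MII against GV. This does not cover transcripts of low counts or the other comparisons. A standard error is the log2 fold change divided by the square root of F, and is approximate. Bounds set a group without counts at 3 counts per library. Fitted log2 fold changes of abundant lincRNAs lay above the log2 ratio of TPM by a median of 0.69 in MII against GV (457 transcripts), −0.01 in EpiC against ESC (438), 1.08 in GV against ESC (208) and 1.79 in MII against EpiC (124), since TMM and TPM scale libraries differently. Depth is given with the markers, and bounds and floors cover counting error only.

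Alternatives were other scalings, filters, an effective length offset, DESeq2 1.42.0, limma 3.58.1 on log2(TPM + 1) or log2(TPM + 0.1), sums per gene, the compared groups alone, the replicate number as a block, and each library left out. Promoter windows near the transcript start were looked at alone, an alternative chosen after seeing the data. Sums per gene cover all transcripts of a gene, while printed TPM sums cover its lincRNA transcripts. Named are the 8 genes with the highest transcript mean in each group, up to 6 called transcripts with the highest and 6 with the lowest log2 fold change per comparison (at least 5 TPM in the higher group, no overlap), and members of the gene lists. The members and lists were chosen with earlier results of these data known. The oocyte list (D6Ertd527e, Sirena1, 1700040I03Rik and Gm20721) matched no lincRNA of the tables. Positions come from GENCODE M21 for 5881 of the 5936 transcripts, 5600 of them still typed lincRNA there, and sequences from RefSeq on GRCm38.p6.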

Additional observations from a re-analysis of the deposited data

How the results depend on the processing

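With 2 libraries per group, single libraries decide many calls. Leaving out 1 library gave 0 to 6 lincRNA transcripts higher and 0 to 56 lower in MII against GV, 0 to 0 both ways in EpiC against ESC, 435 to 535 higher and 87 to 119 lower in GV against ESC, and 455 to 546 higher and 205 to 295 lower in MII against EpiC. Transcripts at 1 TPM in every library left numbered 479 to 497 in MII, 761 to 815 in GV, 434 to 645 in EpiC and 454 to 645 in ESC, and at 5 TPM 220, 368, 161 and 175. No source used here says that libraries of the same replicate number belong together. Replicate 2 was, however, the deeper library in every group and held the larger share of Gm42418. The differences between replicates 1 and 2 of the 2 compared groups were correlated across transcripts, from 2 pairs of same-numbered libraries each. The correlations were 0.1974, 0.5264, 0.0361 and 0.0523 in MII against GV, EpiC against ESC, GV against ESC and MII against EpiC. With the replicate number as a block the higher and lower calls were 35 and 177, 0 and 0, 729 and 240, and 611 and 386 in the same order.

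In MII against GV, with 35 higher and 170 lower, DESeq2 gave 157 and 322, the compared groups alone 129 and 314, sums per gene 119 and 267, and limma on log2(TPM + 1) 90 and 579. Limma on log2(TPM + 0.1) gave 617 lower, no count filter 22 higher and relative log expression 58 higher. In EpiC against ESC, with 1 and 1, DESeq2 gave 26 and 55, sums per gene 13 and 34, limma 27 and 64 or, on log2(TPM + 1), 40 and 78, no filter 4 and 5, and at least 10 counts in every library of a group 2 higher. The compared groups alone and the effective length offset gave 0 and 0, and relative log expression gave 0 higher. In GV against ESC the 242 lower calls became 434 with DESeq2, 366 with the compared groups alone, 370 per gene, and 563 or 472 with limma on log2(TPM + 0.1) or log2(TPM + 1). In MII against EpiC limma on log2(TPM + 0.1) gave 761 lower against 386. The cause of these moves was not tested.

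Of 205 named fold changes, only that of Gm26901-004 in MII against GV turned sign, to 0.76 per gene. Scaling by relative log expression moved the median of all transcripts by 0.30, 0.06, −0.60 and −0.37 in the 4 comparisons in the order above and ended 6 named calls. Under the alternatives fitted per transcript to all libraries compared, the lists' medians kept their sign in GV against ESC and MII against EpiC, except that of the ribosomal RNA like list, which reached 0.0 in GV against ESC. In MII against GV those of the X inactivation, developmental and ribosomal RNA like lists also took positive values, up to 0.34, 0.50 and 0.78.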
